A study of Homo sapiens with 18 samples.

Results

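SH-SY5Y cells exposed to sarin for 24 h were compared with untreated SH-SY5Y cells of the same time, across all genes with a probe set of their own. The comparison rests on 6 of the 18 arrays of the series, 3 from cells exposed to sarin at 5 ppm and 3 from cells with no exposure, chosen by the time and treatment in their labels. The other 12 arrays cover 3 h and 48 h with the same layout and enter here to estimate the spread and as a second set of untreated cells. Against that second set time differs along with treatment, and their effects cannot be told apart. Its arrays of 3 h and 48 h were fitted as a single group, so differences between these times enter the spread. SH-SY5Y is an established human neuroblastoma line, a clonal tumour line with features of noradrenergic nerve cells, so all groups share 1 tumour genome and come from a single line. The labels name 6 flasks per group beside 3 arrays and do not tie arrays to flasks, so p-values measure the spread between arrays, which may be technical.

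Sarin is an organophosphate that blocks acetylcholinesterase, the enzyme that ends cholinergic signalling. Several of the gene groups below answer to known regulators: enzymes of cholesterol and fatty acid synthesis to the sterol-sensing SREBP factors, enzymes of glycolysis to the oxygen-sensing HIF factors, and genes of ribosome assembly and protein folding to MYC and to heat shock factors. An array reads the amount of each transcript relative to the rest of the sample, so less RNA per cell and fewer cells making that RNA cannot be told apart.

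The values were signal on a linear scale, with a trimmed mean between 800.1 and 800.3 throughout the 18 arrays. At 24 h the median signal was 314.9 to 345.3 with sarin and 397 to 413.9 without, and the GAPDH 3′ over 5′ ratio, which grows as RNA breaks down, was 1.05 to 1.17 against 0.811 to 0.941. Across probe sets the 3 control arrays correlated at r of 0.942 to 0.945 with each other, the sarin arrays at 0.955 to 0.958, and arrays of the 2 groups at 0.926 to 0.941. The 3 sarin arrays of 48 h stood apart from all others, with a GAPDH ratio of 2.15 to 2.3. The total count of changed genes and the counts of the lipid and oxygen lists are given with and without them. Most other lists are given with them only, and the calls of several moved when they were left out. Of 11 noradrenergic neuroblastoma markers measured, 10 were above background on all 6 arrays. The exception was TH, the gene of tyrosine hydroxylase, which was not above background on any. All 9 general neuron markers were above background on all 6 arrays. Of 7 markers of glia and Schwann cells measured, 2 (MBP and CNP) were above background on all 6 and S100B and SOX10 on none. Of 4 leukocyte markers CD3E was above it on all 6 and CD14 on none, and of 6 epithelial markers KRT18 on all 6 and CDH1 and KRT19 on none. The summed signal of these 3 lists was 1974.8 to 2663, 484.5 to 1143 and 874.8 to 1160.5 in the control arrays and 2167 to 2254, 387.9 to 573.4 and 816.6 to 1042 in the sarin arrays.

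After 24 h, 622 of 7178 genes tested (8.67%) had changed at an adjusted p under 0.05 in limma's moderated test with Benjamini-Hochberg adjustment, 295 upwards (4.11%) and 327 downwards (4.56%). The change was at least 2-fold for 158 genes (2.2%), 60 higher (0.836%) and 98 lower (1.37%). Genes that rose had a median log2 change of 0.74 and ranged from 0.36 to 2.12, and genes that fell had a median of -0.86 and ranged from -2.30 to -0.42. Sarin and control arrays were fully separate for 2901 genes (40.4%), 1233 higher with sarin (17.2%) and 1668 lower (23.2%), so separate arrays alone were common. The count of 622 fell to 408, 194 and 320 with control replicate 1, 2 or 3 left out, and to 220, 199 and 390 with sarin replicate 1, 2 or 3 left out, and it rose to 1004 without the 48 h sarin arrays. In every fit that left out 1 array, 69 of the genes that rose and 76 of those that fell were called in the same direction.

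The direction of change moved with how strongly a gene was expressed. Among 718 genes with the lowest levels, the first of 10 equal groups, the median log2 change was -0.33, with 5 genes higher and 27 lower, and in the group of highest levels it was 0.13, with 72 higher and 29 lower. Over all genes the median change was -0.07. Centring each array on its median moved it to 0.22, and the split of calls became 1107 higher and 112 lower, but 0 of the 622 genes changed sign. Values below are relative to the deposited scale, and a list of weakly expressed genes with a median below 0 must be read beside these groups. The part of the median signal and of the GAPDH ratio in this slope was not tested.

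**Figure D1:**
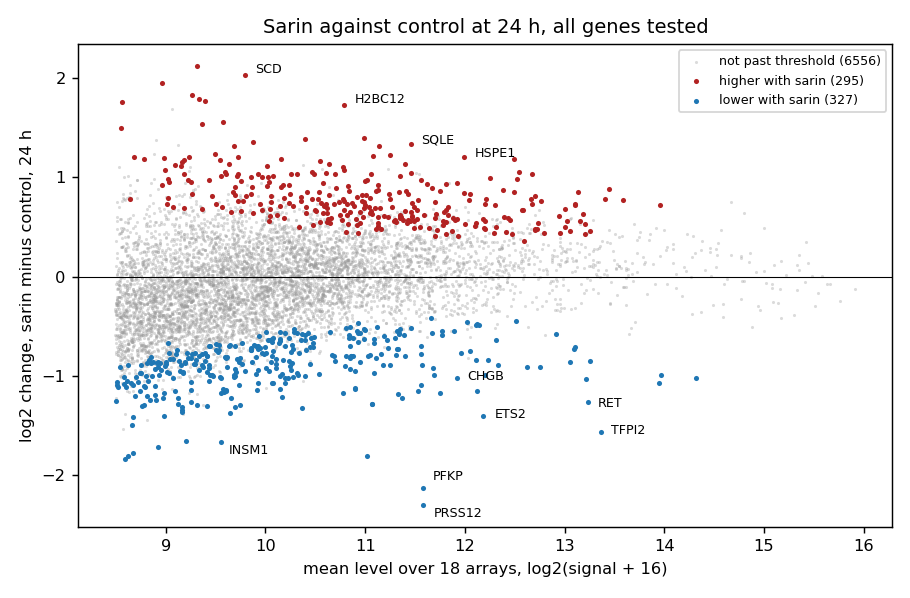
Each point is 1 of the 7178 genes, with its mean level over the 18 arrays as log2(signal + 16) on the x axis and its log2 change with sarin at 24 h on the y axis; red points rose (295 genes) and blue points fell (327). Blue points lie further to the left than red ones, and the cloud of grey points tilts from below 0 at low levels to just above 0 at high levels.

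**Figure D2:**
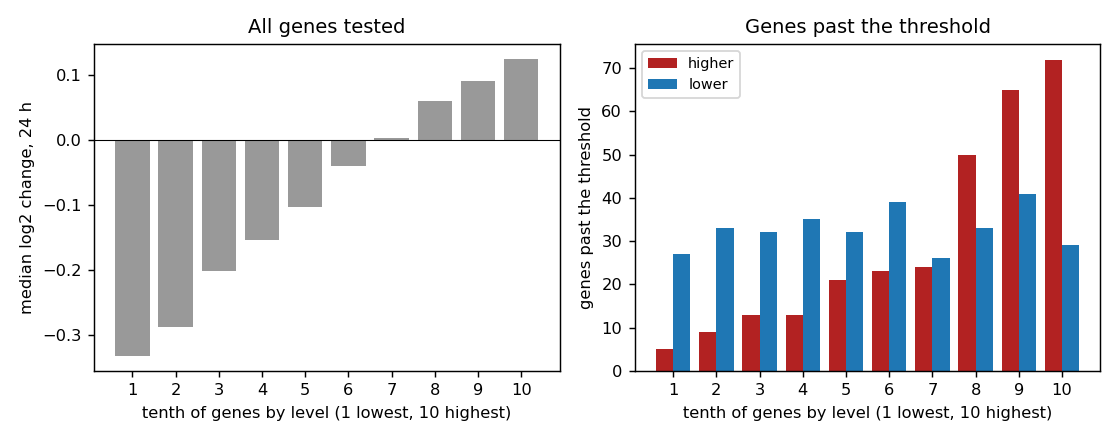
Genes in 10 equal groups by level, from the lowest (1) to the highest (10). The left panel gives the median log2 change of all genes in each group, from -0.33 to 0.13, and the right panel the number of genes that rose (red) and fell (blue).

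The largest decrease was in PRSS12, which encodes neurotrypsin, a serine protease that nerve cells release at synapses. Its signal was 3754, 4208 and 4958 in the control arrays and 875, 777 and 929.5 in the sarin arrays, a log2 change of -2.30 ± 0.19 (SE, n = 3 per group; adjusted p = 5.73e-07, limma). The groups were far apart, and both probe sets of the gene were lower. PFKP, the platelet isoform of phosphofructokinase, which commits sugar to glycolysis, had a signal of 4172, 4724 and 4830.2 without sarin and 1201, 1099.7 and 831 with it. That is a log2 change of -2.13 ± 0.17 with an adjusted p = 5.73e-07 in limma. TFPI2, a secreted inhibitor of serine proteases of the matrix, was among the strongest signals of the cells, at 11802, 15412 and 11866, and stood at 4319, 4769 and 4009 with sarin. AK4, a mitochondrial adenylate kinase, was at 2876, 3352 and 3602 against 879, 869.7 and 1018. ETS2, a transcription factor downstream of growth signals, was at 6289, 4959 and 4451 against 1876, 1889 and 2101. These log2 changes were -1.57 ± 0.15, -1.81 ± 0.20 and -1.40 ± 0.16. PRSS12, PFKP, TFPI2, AK4, ETS2 and INSM1 were the 6 lower genes called in all 21 alternative fits.

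The clearest increase was in SCD, the desaturase that makes monounsaturated fatty acids, at 809, 769.5 and 724 in the control arrays and 3181, 3389 and 2985 in the sarin arrays. The log2 change was 2.03 ± 0.19 (adjusted p = 2.41e-06, limma), and 3 of 4 probe sets had its sign. H2BC12, a histone H2B gene, was at 1117, 2130.5 and 1818 without sarin and at 6047, 5143 and 5106 with it, a log2 change of 1.72 ± 0.20. Histone genes are near-identical copies of each other, so which H2B gene gave this signal is uncertain. The 7 higher genes called in all 21 alternatives were SCD, H2BC12, the sterol pathway genes ACAT2 and SQLE, the ribosome assembly gene RRS1, the zinc finger gene REPIN1 and HSPE1, the co-chaperonin of mitochondria.

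**Figure D3:**
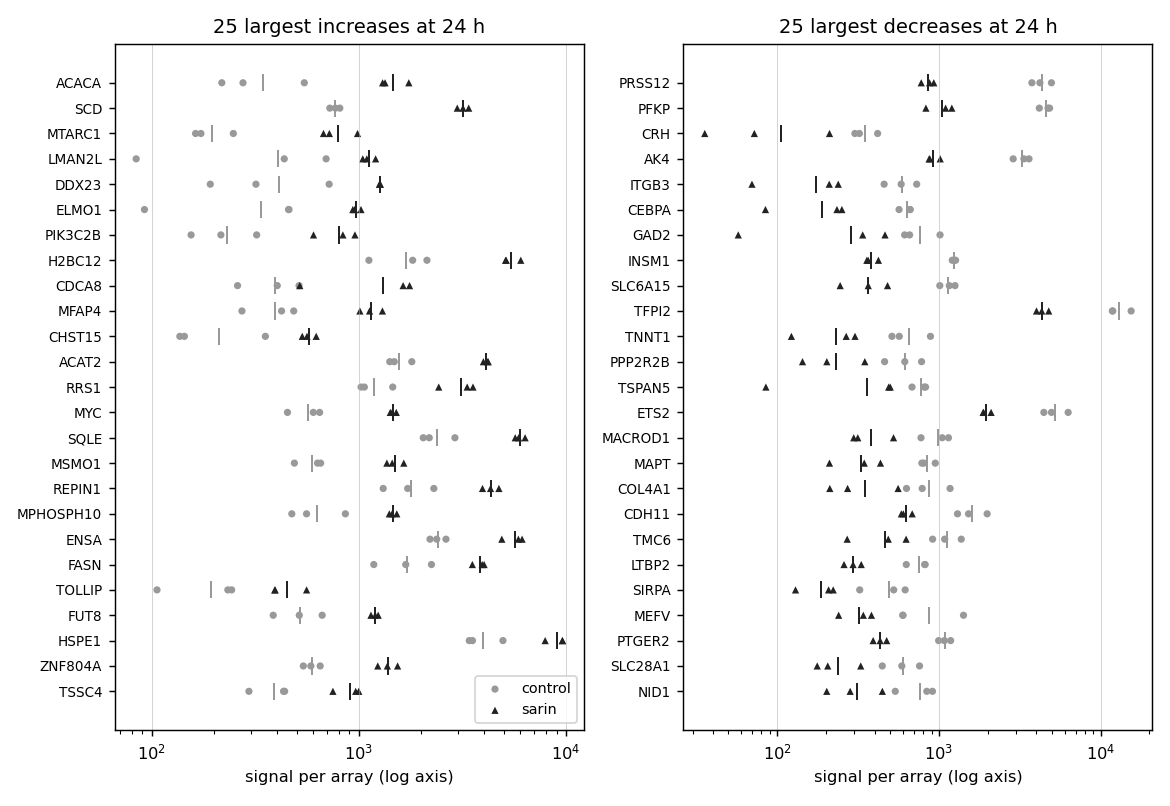
Signal on each array of 24 h (log axis) for the 25 genes with the largest increase (left) and the 25 with the largest decrease (right); grey circles are control arrays, black triangles sarin arrays, and vertical lines the group means. In both panels the shifts of SCD, H2BC12, PRSS12 and PFKP are wide beside the scatter within a group, while 1 sarin array of CDCA8 lies next to the control arrays.

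Genes of cholesterol and fatty acid synthesis rose together. Of 25 tested genes of sterol and fatty acid synthesis, 14 (56%) rose and 0 fell, against 4.11% of all genes higher, and the median log2 change of the list was 0.80. In the list 22 values were above 0 and 3 below. SCD5, a relative of SCD that is not in the list, was among the genes that fell, with the opposite sign against the untreated arrays of 3 h and 48 h. Relative to the control mean, the median of the list lay 0.715 to 0.79 higher on the 3 sarin arrays and between -0.0413 and 0.0137 on the 3 control arrays. The rises ran along the route from acetyl-CoA. ACAT2 and HMGCS1 build the first units of the sterol chain, and ACAT2 went from 1800.3, 1409 and 1481 to 4210.0, 4170.3 and 3990.5. IDI1 and FDPS make the isoprenoid blocks, and FDPS went from 2518, 1829 and 2662 to 3551, 4333 and 4733. SQLE commits the chain to sterols, and it went from 2045, 2908 and 2185 to 6344, 5686 and 5901. For these 3 genes the log2 changes were 1.40 ± 0.18, 0.85 ± 0.18 and 1.34 ± 0.16, with no overlap between the groups.

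The late sterol enzymes rose too. MSMO1, which removes methyl groups from the sterol ring, was at 488, 653 and 631 without sarin and 1365, 1647 and 1448 with it (1.32 ± 0.21). HSD17B7 was at 1.16 ± 0.18, SC5D at 1.05 ± 0.16 and DHCR7, the last step to cholesterol, at 0.96 ± 0.21. On the fatty acid side FASN, the fatty acid synthase, was at 1179.6, 1683 and 2240.1 against 3529, 3935 and 4022 (1.21 ± 0.19). ACACA, which makes malonyl-CoA for it, was at 545, 276 and 218 against 1742, 1301 and 1337 (2.12 ± 0.48), and its second probe set pointed the other way. INSIG1, the sterol-sensing protein that holds SREBP in place, rose by 0.76 ± 0.19 and the elongase ELOVL6 by 0.80 ± 0.18. The count of 14 was 11, 9 and 12 with control replicate 1, 2 or 3 left out, and 9, 12 and 11 with sarin replicate 1, 2 or 3 left out. HMGCS1, at 0.65 ± 0.18, was no longer called once any single array was left out (adjusted p of up to 0.128), and INSIG1 kept its call in 1 of these 6 fits, the one lacking control replicate 2 (adjusted p of up to 0.074 in the others). ACACA (control replicates 2 and 3, sarin replicate 1), IDI1 and DHCR7 (control replicate 2, sarin replicate 1), FDPS (control replicate 2) and ELOVL6 (control replicate 1, sarin replicate 3) needed the arrays in brackets for their calls. Set against the 6 untreated arrays of 3 h and 48 h, 12 of the genes of this list were higher and 0 lower, with a median of 0.52. With spike-in scaling 4 were higher, with a median of 0.84. Without the 48 h sarin arrays 17 were higher and 1 lower.

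Promoters of 2 of these genes are shown because the members moved together and because the sequences carry several CCAAT boxes, the site of the factor NF-Y, a known partner of SREBP. Capitals mark CCAAT or its reverse complement ATTGG. The sequences run from 250 bases before to 50 bases after the RefSeq start of the gene, 5′ to 3′ on the strand of the gene, build GRCh38.p14, MSMO1 at chr4:165327419-165327718 (plus strand) and FDPS at chr1:155308616-155308915 (plus strand). They were chosen, after values were seen, as those with most matches.
MSMO1: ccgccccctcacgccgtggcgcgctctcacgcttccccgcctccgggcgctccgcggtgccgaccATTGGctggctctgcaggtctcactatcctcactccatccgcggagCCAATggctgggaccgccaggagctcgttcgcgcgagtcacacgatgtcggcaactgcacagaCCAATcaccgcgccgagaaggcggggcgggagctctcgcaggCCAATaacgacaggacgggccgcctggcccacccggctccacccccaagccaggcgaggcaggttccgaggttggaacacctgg
FDPS: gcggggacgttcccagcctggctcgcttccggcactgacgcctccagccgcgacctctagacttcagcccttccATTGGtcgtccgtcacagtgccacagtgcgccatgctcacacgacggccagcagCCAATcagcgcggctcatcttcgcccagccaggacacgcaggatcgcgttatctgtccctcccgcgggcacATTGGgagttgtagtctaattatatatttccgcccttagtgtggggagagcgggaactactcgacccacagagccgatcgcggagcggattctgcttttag
MSMO1 had 4 matches and FDPS 3. Of the 11 genes of this list that rose and had an entry in the promoter table, 8 (72.7%) had at least 1 CCAAT on either strand, against 38.0% of the promoters of all tested genes with an entry and 35.7% of all 27305 promoters of that length. The GC box GGGCGG, a common promoter element, was in all 11 (100%), against 70.2% of all tested and 44.6% of all promoters, so CCAAT was not the only frequent motif. The sterol element searched as TCACNCCAC on both strands matched 0 of the 11, and 1.15% of all promoters. A match shows only that these letters stand in the window.

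Many genes of glycolysis and of the response to low oxygen went the other way. Of 36 tested genes of this list, 14 (38.9%) fell and 0 rose, against 4.56% of all genes lower, with a median of -0.62. The median of the list was -0.673 to -0.504 on the sarin arrays relative to the control mean, and -0.0639 to 0.0232 on the control arrays. Of the 14, 11 lay at levels where the median change of all genes was above 0, and ADM, EGLN1 and EGLN3 at levels where it was below 0. The genes of sugar breakdown among them were GPI (-0.84 ± 0.13), PFKP (-2.13 ± 0.17), ALDOC (-0.80 ± 0.15), TPI1 (-0.99 ± 0.20), PGK1 (-1.03 ± 0.14), PGAM1 (-0.85 ± 0.15), ENO2 (-0.73 ± 0.14) and LDHA (-1.02 ± 0.18). Between these steps, GAPDH (0.0071 ± 0.36, adjusted p = 0.991) and the pyruvate kinase gene PKM (-0.58 ± 0.19, adjusted p = 0.066) did not pass the test in limma. Nor did HK1 (-0.57 ± 0.18), HK2 (0.31 ± 0.19), PFKL (-0.76 ± 0.27), PFKM (-0.24 ± 0.15), ALDOA (-0.52 ± 0.18) or ENO1 (-0.45 ± 0.16). Their adjusted p-values in limma ran from 0.0533 (HK1) to 0.311 (PFKM). ALDOA and ENO1 gave stronger signals than their called relatives ALDOC and ENO2. PGK1, which makes the first ATP of the pathway, had a signal of 15692, 15919.9 and 13912 in the control arrays and 7189, 7837 and 7169 in the sarin arrays. LDHA, which turns pyruvate to lactate, had 30877, 30321 and 24115 against 13778, 14512 and 13475. In both the sarin arrays lay close together and well below every control array.

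Outside glycolysis, some genes of the list that low oxygen switches on fell as well. Others did not, such as VEGFA (0.05 ± 0.17), NDRG1 (0.10 ± 0.19), MXI1 (0.10 ± 0.15) and DDIT4 (0.32 ± 0.20), all without a call. In the whole list of 36 tested genes 8 values were above 0 and 28 below. EGLN1 and EGLN3, the prolyl hydroxylases that mark HIF for breakdown and are themselves HIF targets, were at -0.88 ± 0.19 and -1.14 ± 0.23. EGLN3 went from 772, 1165 and 921 to 474, 372 and 412. BNIP3, a receptor for the removal of mitochondria, went from 3940.5, 3796 and 3430.2 to 1659, 1676 and 1559.9 (-1.18 ± 0.19), and its relative BNIP3L fell by 0.78 ± 0.20. P4HA2, a collagen prolyl hydroxylase, fell by 0.98 ± 0.19 and the vasodilator peptide gene ADM by 1.26 ± 0.30. The call of ADM needed control replicate 2 and sarin replicate 2, and that of BNIP3L needed control replicates 2 and 3 and sarin replicates 1 and 2, with an adjusted p of up to 0.1 and 0.106 when 1 of them was left out. The count of 14 was 12 to 14 in the fits that left out 1 array, 17 without the 48 h sarin arrays, 16 with quantile normalization and 18 against the untreated arrays of 3 h and 48 h, with 0 higher in each. With each array centred on its median 12 were lower and 2 higher. With spike-in scaling 1 was lower, while the median of the list was -0.58. All 4 probe sets of PGK1 and all 3 of TPI1 had the same sign.

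Promoters of LDHA and PGK1 are shown because both carry repeats of the core ACGTG, the letters that HIF binds within a longer site. Capitals mark ACGTG or its reverse complement CACGT, which overlap where they form the E-box CACGTG. LDHA lies at chr11:18394313-18394612 (plus strand) and PGK1 at chrX:78103998-78104297 (plus strand), in the same build and window, and LDHA was chosen for most matches and PGK1 from the 2 genes with 3, the other being ALDOC.
LDHA: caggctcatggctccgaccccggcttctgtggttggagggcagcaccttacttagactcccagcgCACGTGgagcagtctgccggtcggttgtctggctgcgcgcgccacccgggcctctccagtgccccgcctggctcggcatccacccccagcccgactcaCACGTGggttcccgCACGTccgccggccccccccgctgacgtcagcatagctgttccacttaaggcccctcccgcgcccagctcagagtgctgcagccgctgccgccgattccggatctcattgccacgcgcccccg
PGK1: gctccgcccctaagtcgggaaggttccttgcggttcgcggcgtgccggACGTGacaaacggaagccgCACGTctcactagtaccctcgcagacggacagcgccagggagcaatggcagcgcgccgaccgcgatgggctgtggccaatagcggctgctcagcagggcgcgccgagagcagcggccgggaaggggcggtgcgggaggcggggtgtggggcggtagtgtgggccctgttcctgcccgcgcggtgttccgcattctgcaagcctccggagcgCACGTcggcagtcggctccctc
LDHA had 5 matches on either strand and PGK1 3. At least 1 match was present in 7 of the 13 genes of this list that fell and had an entry (53.8%), against 27.4% of all tested genes and 21.6% of all promoters. The core was not particular to this list, since 39.0% of the 254 promoters of genes that rose held it and 22.6% of the 266 of genes that fell. Between all genes that rose and all that fell, other motifs differed less or in small shares. The AP-1 site TGANTCA was in 2.36% of promoters of genes that rose and 7.14% of those that fell, with 4.34% of all tested, and CCAAT in 43.3% and 33.5%. The GC box GGGCGG was in 69.7% and 65.0%, beside 70.2% of all tested. These shares are descriptions, and promoters differ in base composition.

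Genes of the CCT chaperonin, the ring that folds actin and tubulin, had smaller values of 1 sign. All 14 tested genes of it and of its partner prefoldin had values above 0, with a median of 0.48, and 4 (28.6%, against 4.11% of all genes) rose. CCT3 went from 14555, 9714 and 12176 to 22509, 21953 and 21837 (0.88 ± 0.17), and CCT8 from 6657, 3847 and 3722 to 11553, 11052 and 8842 (1.19 ± 0.23), and its second probe set pointed the other way. CCT6A and CCT2 were at 0.51 ± 0.13 and 0.50 ± 0.14 and lost their calls in 5 and all 6 of the fits that left out 1 array, with adjusted p-values of up to 0.128 and 0.139. The count of 4 was 3 without control replicate 1 and 2 without any other single array. With each array centred on its median 10 members were higher, and with quantile normalization 2. Of 19 genes of mitochondrial protein import 1 rose and 2 fell (median 0.03). HSPE1 was at 4959.5, 3410.1 and 3534 against 9621, 9594 and 7929.9 (1.2 ± 0.18), a clear separation.

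In lists of genes that handle RNA a minority passed the test, most of them upwards. Of 29 DEAD and DEAH box helicases, which unwind RNA, 5 rose (17.2%, against 4.11% of all genes) and 1 fell (3.45%, against 4.56%), with a median of 0.30. DDX1 went from 5369, 3834 and 4729.6 to 8244, 8022 and 8257 (0.83 ± 0.15), and DDX49, needed for ribosomal RNA, from 1561, 1102 and 1367 to 2912, 2653 and 2639.9 (1.03 ± 0.20). The spliceosome helicase DDX23 was at 192, 718 and 318 against 1268, 1256 and 1266 (1.79 ± 0.37), with control arrays far apart from each other. DDX11, a DNA helicase of chromosome cohesion, was the 1 that fell, by 0.89 ± 0.17. Of 44 RNA-binding motif, CELF, ELAVL and MBNL genes, 6 rose (13.6%) and 0 fell, with a median of 0.13 and 16 values below 0. Among those that rose were RBM22 (1.03 ± 0.20) and RBM10 (1.02 ± 0.21), both splicing regulators. The helicases that rose numbered 4 without control replicate 1 or sarin replicate 3 and 3 without any other single array, and the RNA-binding genes 4, 3 and 4 (control replicates 1, 2 and 3) and 3, 2 and 4 (sarin replicates 1, 2 and 3). Of 25 aminoacyl-tRNA synthetases, which load amino acids onto tRNA, 3 rose (12%) and 0 fell with a median of 0.28. EPRS1 was at 2331, 2166 and 1595 against 4329, 4311 and 3613 (1.02 ± 0.17), and it was the 1 synthetase called without any single array, while KARS1 (0.42 ± 0.13) and FARSA (0.57 ± 0.17) lost their calls in all 6 such fits. Of 49 translation factors 4 rose (8.16%) and 0 fell (median 0.13), led by EIF2B4, a subunit of the exchange factor that restarts initiation, at 0.75 ± 0.13, and EIF4G1, the scaffold of the cap complex, at 0.78 ± 0.17. EIF4G1 was not called without control replicate 2 (adjusted p = 0.0626), and the 4 factors were 3, 1 and 3 with control replicate 1, 2 or 3 left out and 2 without any 1 sarin array. Against the untreated arrays of 3 h and 48 h 5 of the factors were higher and 4 lower (median 0.04), and with quantile normalization 1 was higher. Of 57 nuclear pore and karyopherin genes 3 rose (5.26%) and 0 fell, with a median of 0.04. Most of these lists have a level above that of the typical gene, where the median change of all genes was also above 0.

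RRS1, MPHOSPH10 and MYC were among the 25 largest increases. RRS1 and MPHOSPH10 both work on ribosomal RNA in the nucleolus. RRS1 went from 1024, 1062 and 1456 to 3554, 3332 and 2429 (1.38 ± 0.27) and MPHOSPH10 from 558, 474 and 859.8 to 1523, 1445 and 1402 (1.23 ± 0.23). SRM, the spermidine synthase, rose by 0.76 ± 0.19, a call that needed control replicates 2 and 3 and sarin replicates 1 and 2 (adjusted p of up to 0.077 with 1 of them left out). MYC, the growth factor-driven transcription factor with many ribosome genes among its targets, was at 602, 452 and 646 in the control arrays of 24 h and 1514, 1448 and 1417 with sarin (1.36 ± 0.23, adjusted p = 0.00141, limma). The untreated arrays of the other times were higher than those of 24 h, at 1849, 1444.5 and 1334 at 3 h and 1186, 1030.2 and 1056 at 48 h. Against those 6 arrays MYC with sarin was at 0.18 (adjusted p = 0.675), so the size of its rise depends on the control cells of 24 h.

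Nuclear regulators moved in small numbers. Of 94 chromatin remodellers and histone modifiers 5 rose (5.32%, against 4.11% of all genes) and 1 fell (1.06%, against 4.56%), with a median of 0.13. SMARCC1, a core part of the SWI/SNF remodeller, was at 2794, 2856 and 2448 against 4029.6, 4977 and 4879 (0.77 ± 0.14). Of 151 zinc finger genes 7 rose (4.6%) and 4 fell (2.6%), a share near that of all genes, with ZNF804A at 1.2 ± 0.19. The rises numbered 6, 1 and 2 for chromatin genes and 6, 1 and 2 for zinc fingers with control replicate 1, 2 or 3 left out. Without sarin replicates 1, 2 and 3 they numbered 1, 1 and 1, and 1, 1 and 2. Of 38 genes of PI3K, AKT, mTOR and insulin-like growth factor signalling 3 rose (7.89%) and 0 fell. PIK3C2B, a class II lipid kinase, went from 155, 321 and 216 to 837, 604 and 957 (1.76 ± 0.31), and PIK3R1, the regulatory subunit that docks class I kinases on receptors, from 777, 833 and 865 to 1506, 1504 and 1663 (0.90 ± 0.20). PIK3R3, at 0.83 ± 0.23, was called in none of the 6 fits that left out 1 array (adjusted p of up to 0.118). In the mitochondrial matrix PDHB, a subunit of pyruvate dehydrogenase, rose by 1.13 ± 0.20 and was at 0.40 (adjusted p = 0.211) against the untreated arrays of 3 h and 48 h. ACADVL, the first enzyme of long-chain fatty acid oxidation, fell from 3403, 4009 and 4415 to 1597, 1580.0 and 1860.2 (-1.22 ± 0.16).

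Of 41 integrins, annexins, S100 proteins and tetraspanins, genes of cell attachment and the cell membrane, 8 fell (19.5%, against 4.56% of all genes) and 1 rose, with a median of -0.26. S100A10, which carries annexin A2 to the membrane, went from 5089, 3663 and 3616 to 2201, 1849.8 and 1443 (-1.17 ± 0.23). ANXA2 itself went from 8117, 9335 and 10804 to 5366, 5073 and 4966 (-0.86 ± 0.20), a call that needed control replicates 2 and 3 and sarin replicate 2 (adjusted p of up to 0.0611 with 1 of them left out). ITGB3, a receptor subunit for vitronectin, was at 458, 728 and 584 against 69.9, 239 and 209.9, and was not called with control replicate 2 or with sarin replicate 1 left out (adjusted p of up to 0.0622). The count of 8 was 4, 2 and 3 with control replicate 1, 2 or 3 left out, and 3, 4 and 6 with sarin replicate 1, 2 or 3 left out. Against the untreated arrays of 3 h and 48 h it was also 8 (median -0.21), and with each array centred on its median 3 were lower and 3 higher (median 0.03). CDH11, a mesenchymal cadherin, was at 1303, 1524 and 1986 against 586, 602 and 684 (-1.32 ± 0.20). LTBP2, which binds TGF-β in the matrix, was at 822, 816 and 628 against 331, 259 and 295 (-1.31 ± 0.22). The basement membrane genes COL4A1 (-1.34 ± 0.37) and NID1 (-1.29 ± 0.28) also fell, COL4A1 with a call that needed control and sarin replicates 2 and 3 and NID1 with one that needed control and sarin replicate 2 (adjusted p of up to 0.122 and 0.0648 with 1 of them left out). The summed signal of 11 markers of flat, substrate-adherent cells was 34238.4 to 36277 in the control arrays and 28290.5 to 29378 in the sarin arrays, and 1 of 9 tested, NOTCH2, fell. VIM, the gene of the filament protein vimentin, gave 63.5% to 69.4% of that sum and did not pass the test (-0.36 ± 0.23, adjusted p = 0.333). The 10 others summed to 11091 to 12035 without sarin and 9949 to 10334 with it, and FN1 and COL3A1 were at 0.25 and 0.20 without a call. The part of such cells in these values was not tested.

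Of 73 proteases and protease inhibitors 7 fell (9.59%, against 4.56% of all genes) and 1 rose (median -0.45), and the count of 7 was 5 or 6 in the fits that left out 1 array. Against the untreated arrays of 3 h and 48 h 8 were lower and 1 higher, with a median of -0.11, and with each array centred on its median 5 were lower and 4 higher (-0.16). Besides PRSS12, the lysosomal cathepsin CTSB went from 3524, 3129.9 and 3973 to 1853, 2054 and 1782 (-0.89 ± 0.17), and CTSH fell by 1.0 ± 0.18. RECK, a membrane inhibitor of matrix metalloproteinases, was at 11203, 7575 and 5429.7 against 2999.7, 3419.8 and 4077 (-1.15 ± 0.22). Against the untreated arrays of 3 h and 48 h RECK was at -0.01 (adjusted p = 0.99, limma), so the size of its fall depends on which untreated arrays serve as control. Its value at 3 h, from separate sarin and control arrays, was also negative and is given further on. The 1 that rose was SERPINH1, the collagen chaperone of the endoplasmic reticulum, at 1016, 1022 and 1081 against 2570.0, 1882 and 1896 (1.0 ± 0.19).

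Lists of receptors and immune genes had medians below 0 and few calls, and their levels lie in the lower part of the range. Of 51 G protein-coupled and peptide receptors 5 fell (9.8%, against 4.56% of all genes) and 0 rose (median -0.48). CXCR4, the chemokine receptor for CXCL12, had a signal of 3483, 3239 and 3492 against 1731, 1428 and 1438 (-1.15 ± 0.22), and all 3 of its probe sets were lower. PTGER2, a prostaglandin receptor, fell by 1.29 ± 0.32, with a call in the fit lacking control replicate 1 alone among those that left out 1 array (adjusted p of up to 0.0689). Of 50 genes of cytokines, chemokines and tumour necrosis factor receptors 5 fell (10%) and 0 rose (median -0.41), with TNFRSF12A, the receptor of the cytokine TWEAK, at 1111, 1138 and 1187 against 630.3, 637 and 587 (-0.87 ± 0.15). Of 50 interferon response and antigen presentation genes 4 fell (8%) and 0 rose (median -0.35). HLA-C, which presents peptides to T cells, was at -0.70 ± 0.17 and HLA-E at -0.63 ± 0.18. HLA genes share much of their sequence, which leaves the source of each signal uncertain, and 2 of the 4 probe sets of HLA-C had the opposite sign. Both calls needed control replicates 2 and 3 and sarin replicate 2, and that of HLA-E needed sarin replicate 1 too (adjusted p of up to 0.0874 and 0.127 with 1 of them left out). The 4 interferon and antigen genes that fell were 2, 0 and 2 with control replicate 1, 2 or 3 left out and 1, 0 and 4 with sarin replicate 1, 2 or 3 left out. The 5 receptors were 4, 1 and 2 and then 2, 2 and 3, and the 5 cytokine genes 2, 1 and 2 and then 2, 2 and 3, in the same order. Against the untreated arrays of 3 h and 48 h the medians of these 3 lists were -0.06, -0.10 and -0.12. With each array centred on its median 3, 2 and 1 of their genes were lower and 2, 3 and 1 higher.

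Neuronal genes did not move as a block. Among 8 tested general neuron markers 0 rose and 0 fell. Of 10 tested noradrenergic markers 2 rose and 2 fell, and their summed signal was 95504.1 to 107836 without sarin and 109476 to 111580 with it. RET, the receptor of GDNF-family ligands, was at 15922, 17603 and 15039.9 against 6398, 7082 and 6758 (-1.26 ± 0.14). GATA3, a transcription factor of sympathetic nerve cells, was at 13065, 10898 and 13026 against 22550.1, 19464 and 18797 (0.72 ± 0.19), a call that needed control replicates 2 and 3 and sarin replicates 1 and 2 (adjusted p of up to 0.119 with 1 of them left out). The 2 granin genes, whose proteins fill secretory granules, parted. CHGA was at 23062, 14833 and 15471 against 28133, 30671 and 30415 (0.77 ± 0.17), not called with control replicate 2 left out, and CHGB at 12238, 12199.8 and 10566 against 5589.7, 5588 and 6069.7 (-1.02 ± 0.11).

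CHGB was also the 1 changed gene with a call in the opposite direction against untreated arrays of other times. Its signal in untreated cells was 3786, 3860.0 and 3481.5 at 3 h and 3655, 3795 and 3831 at 48 h, below both groups of 24 h, and against these 6 arrays sarin cells of 24 h were higher by 0.62 (adjusted p = 0.00027, limma). For the 295 genes that rose, 182 were also called higher against the 6 other untreated arrays, 108 had the same direction without a call and 5 the opposite one. For the 327 that fell the numbers were 157, 160 and 10. CDCA8, a chromosomal passenger gene of dividing cells, was such a case. It was at 403, 259 and 514 in the 24 h controls and 1634, 1756 and 518 with sarin, and between 1254 and 2165 in the untreated arrays of 3 h and 48 h. Its call needed control replicate 2 and sarin replicates 1 and 2 (adjusted p of up to 0.0761 with 1 of them left out).

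**Figure D4:**
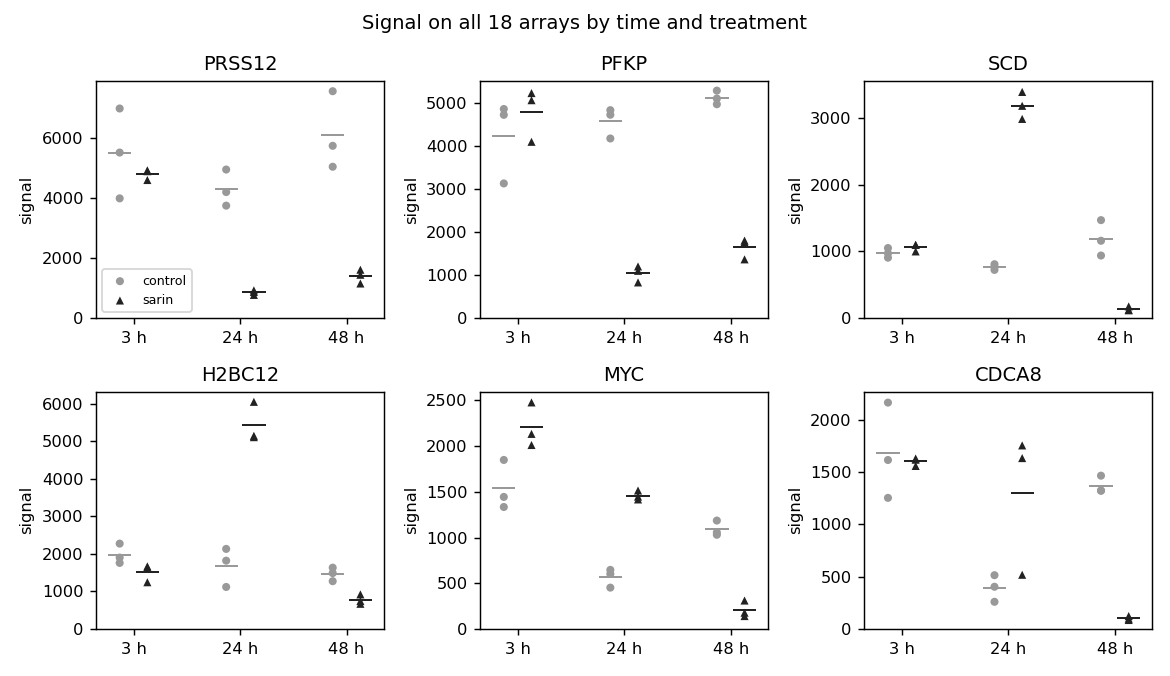
Signal of 6 genes on all 18 arrays by time, with control arrays as grey circles, sarin arrays as black triangles and group means as lines. PRSS12, PFKP, SCD and H2BC12 differ from all 9 control arrays at 24 h. MYC with sarin at 24 h lies within the range of the control arrays of other times, and it is the 24 h controls that are low. For CDCA8 the 24 h controls are low too, but its lowest sarin array of 24 h lies beside them and below the control arrays of other times. The 48 h sarin arrays are those that stood apart in RNA quality.

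Lists of developmental and guidance genes had medians below 0, and the share called differed between them. Of 51 SOX, FOX, HOX and other developmental transcription factors 3 fell and 1 rose (7.84% called, against 8.67% of all genes), with a median of -0.15. Of 19 genes of Notch signalling and neurogenic factors 4 fell (21.1%, against 4.56% of all genes) and 0 rose, with a median of -0.46. With the other untreated arrays as control 2 were lower (median -0.07), and with each array centred on its median 1 was (-0.17). INSM1, a zinc finger factor of neuroendocrine precursors, was at 1242, 1267 and 1208 against 358, 423 and 365 (-1.66 ± 0.25), and it was the member with the widest gap between groups relative to their spread. NOTCH2 (-0.86 ± 0.21), NOTCH3 (-0.95 ± 0.25) and MYT1 (-0.76 ± 0.22) each needed several single arrays for their calls, with adjusted p-values of up to 0.0841, 0.107 and 0.174. Between 1 and 3 members were called in those fits (3, 2 and 1 with control replicate 1, 2 or 3 left out, and 1, 2 and 2 with sarin replicate 1, 2 or 3 left out). Of 41 axon guidance genes 5 fell (12.2%) and 1 rose (median -0.41), and with those arrays as control 3 were lower and 1 higher (-0.014), with median centring 1 lower and 6 higher (-0.12). EFNB3, a membrane ephrin that repels growing axons, went from 927, 1393 and 859 to 372, 568 and 391 (-1.22 ± 0.23), and its second probe set pointed the other way. The 2 collapsin response genes, which carry guidance signals to the cytoskeleton, went in opposite directions, DPYSL3 at -0.81 ± 0.20 and DPYSL2 at 0.58 ± 0.17. Neither kept its call in all fits that left out 1 array, with adjusted p-values of up to 0.104 and 0.187. MAPT, the microtubule protein tau, fell by 1.37 ± 0.34, with all 4 probe sets lower and a call that needed control replicates 1 and 2 and sarin replicate 2 (adjusted p of up to 0.11 with 1 of them left out). The guidance genes that fell were 2, 1 and 3 with control replicate 1, 2 or 3 left out, and 1, 1 and 5 with sarin replicate 1, 2 or 3 left out.

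Of 123 solute carriers 11 fell (8.94%, against 4.56% of all genes) and 1 rose, with a median of -0.28. With the untreated arrays of 3 h and 48 h as control the calls were 3 lower and 5 higher, with a median of -0.05. SLC6A15, a carrier of neutral amino acids in nerve cells, was at 1257, 1158 and 1013 against 366, 481 and 245 (-1.65 ± 0.25) and kept its call without any 1 array. SLC18A1, the vesicular monoamine transporter of chromaffin-type cells, was at 3278, 4144 and 4101 against 2509, 2778 and 2438 (-0.57 ± 0.14), a call that needed control replicates 2 and 3 and sarin replicates 1 and 3 (adjusted p of up to 0.0872 with 1 of them left out). The 11 genes were 6, 2 and 3 with control replicate 1, 2 or 3 left out, and 2, 3 and 7 with sarin replicate 1, 2 or 3 left out. With each array centred on its median 5 were higher and 6 lower, and the median was 0.01.

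Among signalling lists, 5 of 61 Rab and Arf genes fell (8.2%, against 4.56% of all genes) and 1 rose. RAB31, a GTPase of Golgi traffic, was at 1221, 1185 and 1289 against 646, 753 and 657 (-0.83 ± 0.18). Of 32 Wnt signalling genes 4 fell (12.5%) and 0 rose, with DKK1, a secreted Wnt inhibitor, at 10211, 12932 and 13000.1 against 6957, 7376 and 7399.6 (-0.72 ± 0.15). DUSP7, a phosphatase of MAP kinases, rose by 1.11 ± 0.21. The 5 Rab and Arf genes were 3, 1 and 3 with control replicate 1, 2 or 3 left out, and 2, 1 and 3 with sarin replicate 1, 2 or 3 left out. Of the 4 Wnt genes these fits left 3, 1 and 2 and then 1, 1 and 3. With each array centred on its median 1 of the Rab and Arf genes was lower and 8 higher, and 1 of the Wnt genes lower and 4 higher. In 5 of the 52 lists no gene was called in either direction: nuclear receptors (15 tested), ubiquitin-conjugating enzymes (18), sphingolipid metabolism (20), the circadian clock (10) and the FGF, EGF, VEGF and PDGF families (19).

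**Figure D5:**
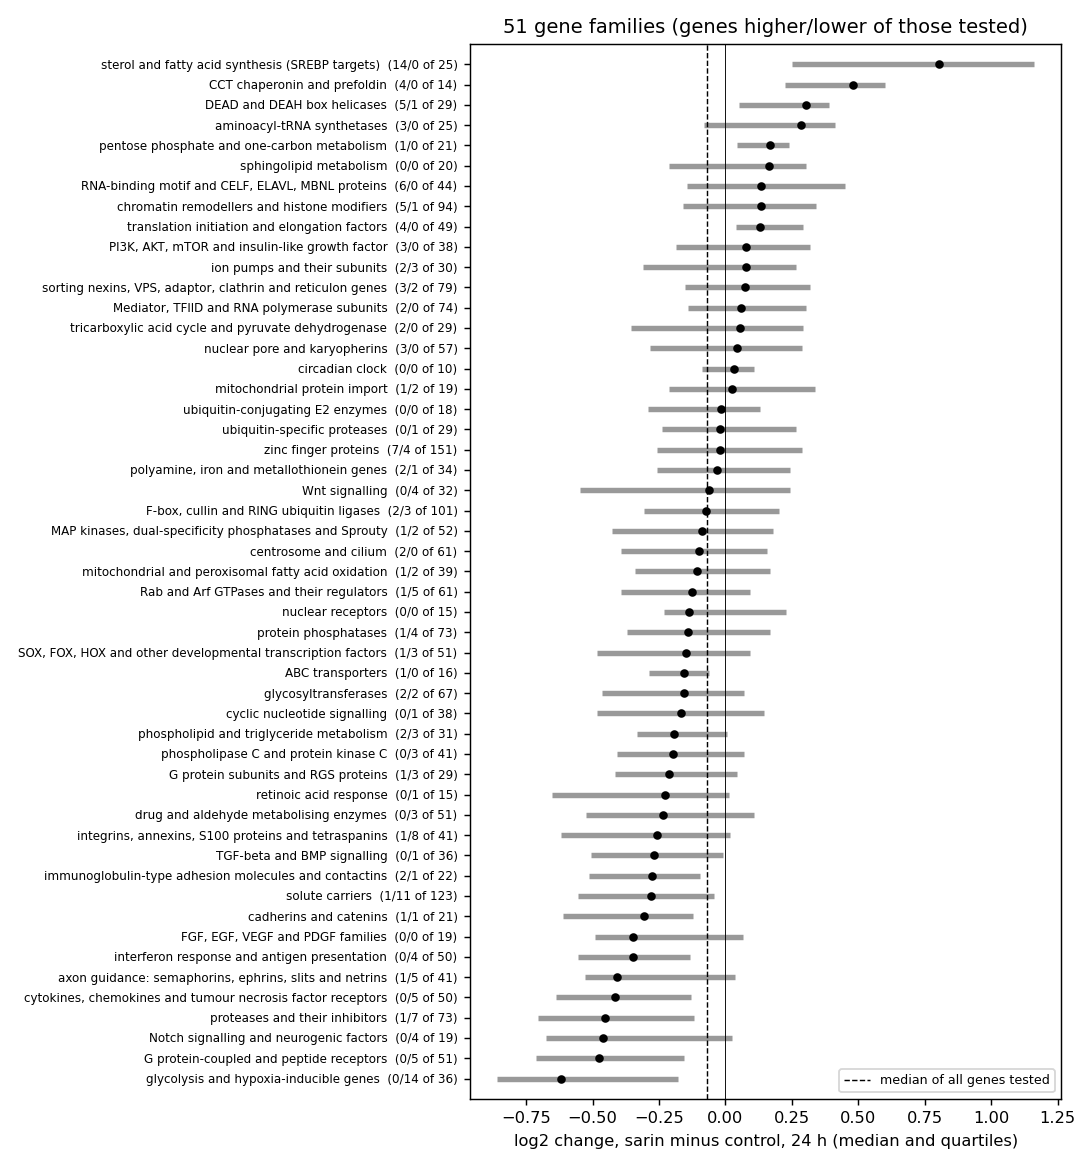
Median (point) and quartiles (bar) of the log2 change at 24 h for the tested genes of 51 lists, with the number of genes that rose and fell of those tested beside each name; the dashed line is the median of all genes, -0.07. Sterol and fatty acid synthesis (0.80) and glycolysis and hypoxia (-0.62) stand at the ends, and 9 lists have a median under -0.3.

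Of the 622 changed genes 217 belonged to 1 or more of the 52 lists and 405 to none. Of the 25 largest increases 13 were outside the lists. Among them MTARC1, a mitochondrial reductase gene, was at 163, 173 and 247 against 719.8, 984 and 674 (1.95 ± 0.28), and against the untreated arrays of other times at 0.60 (adjusted p = 0.113). MFAP4, a protein of elastic fibres, was at 484, 423 and 272 against 1298, 1011 and 1125, and at 0.22 (adjusted p = 0.641) against those arrays. Of the 25 largest decreases 14 were outside the lists. MACROD1, a mitochondrial hydrolase of ADP-ribose marks, was at 1047, 775 and 1145 against 298, 315 and 524 (-1.37 ± 0.22). CRH, the gene of corticotropin-releasing hormone, was low in all cells, at 322, 302 and 418 against 72.3, 211 and 35.7 (-1.83 ± 0.42), a call that needed control replicate 3 and sarin replicates 1 and 3 (adjusted p of up to 0.0611 with 1 of them left out). CEBPA, a transcription factor of fat and liver cells, was at 665, 661 and 567 against 84.7, 234 and 251 (-1.77 ± 0.38) and was not called with sarin replicate 1 left out (adjusted p = 0.0593). Of the 25 largest increases 17 were called in every fit that left out 1 array and 15 against the untreated arrays of other times. Of the 25 largest decreases the numbers were 10 and 20.

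Where a changed gene had further probe sets, most went the same way. Of 534 such probe sets 399 (74.7%) had the sign of the one tested, 78.0% of the 328 above the level filter and 69.4% of the 206 below it. Among the 25 largest increases 6 genes had over 1 probe set, and in 3 of them all had the same sign. Among the 25 largest decreases these numbers were 14 and 13. Sarin at 3 h, measured on separate sarin and separate control arrays, changed 0 of 7178 genes (0%) at the same threshold in limma, with 747 at an unadjusted p under 0.05. Of the 295 genes that rose at 24 h, 197 (66.8%) had a value above 0 at 3 h, with a median of 0.13, and 48.5% of all genes tested did. Of the 327 that fell, 236 (72.2%) were below 0, with a median of -0.16, as were 51.5% of all genes. MYC was at 0.52, RECK at -1.14 and RBM22 at 0.76 at 3 h, and PFKP at 0.20.

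The esterase genes whose products sarin binds were not called. ACHE, the gene of acetylcholinesterase, lay below the level filter, at 203, 41.4 and 203 in the control arrays and 45.3, 37.9 and 109 in the sarin arrays, where it was not above background on any of the 3. Control replicate 2 lay at the level of the sarin arrays, the groups overlapped, and the adjusted p was 0.54 in limma without the level filter. BCHE, butyrylcholinesterase, was at 1372, 1560.0 and 1619 against 1106, 1633 and 1557 (-0.10 ± 0.18, adjusted p = 0.763), with overlapping groups. PNPLA6, the neuropathy target esterase, was at 1493, 1617 and 1763 against 1169, 1237 and 1506 (-0.32 ± 0.21, adjusted p = 0.353), and in this case too sarin and control arrays overlapped.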

How the data were processed

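The deposited table holds the signal intensity of 22283 probe sets, a column for each array. The submitters' processing notes name MAS5, and its version and settings were not given in the sources used here. MAS5 scales arrays to a common mean, so a change in the shape of the distribution shifts some of the values. There were 19065 probe sets that name 1 gene and were used, 1043 several, 2107 none, and 68 are controls. 19053 matched a RefSeq gene table of GRCh38.p14 by Entrez identifier, with 0 symbols changed. Promoters are RefSeq's, same build. The probe set with the highest mean stood for each of 11963 genes, and the 7178 in the upper 60% by level (log2 8.49, signal 344.7) were tested. Values were log2(signal + 16), on which folds of low genes are understated. The 6 group means were estimated from the 18 arrays with limma 3.58.1 in R 4.3.3 (lmFit, then eBayes with a trend; residual degrees of freedom 12, prior 7.34), two-sided, with Benjamini-Hochberg adjustment over the 7178. A permutation test of 3 against 3 arrays cannot go below 0.1 and was not used. A probe set counted as above background on an array where it exceeded the 90th percentile, on that array, of the 27 bacterial probe sets with no spike. Fits were checked on simulated data.

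The members, the 52 gene lists and the tests were chosen with earlier results of these data known; 1 list is not reported here. After seeing the values, 1 pattern that took an unrelated gene was corrected, PRSS12 was dropped from the retinoic acid list, and 2 lists were renamed. Named genes are the 25 largest changes in each direction, up to 4 changed members of each list by smallest p, the markers, and ACHE, BCHE and PNPLA6. Beside the rule, 24 genes were named after their values were seen, the other changed members of the lipid and oxygen lists, GAPDH, PKM, RET, CHGA, CHGB, DPYSL2 and RECK, and so were those of opposite sign against other controls. Further uncalled members of the oxygen list were also named after their values were seen and are not in the counts of named genes. The number of arrays limits the precision. The 21 alternatives were other pseudocounts, filters, scalings, probe set summaries, limma settings, array sets, the replicate number as a block, and omission of single arrays.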

Additional observations from a re-analysis of the deposited data

Results flagged for a closer look

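The sarin effect at 24 h differed from that at 3 h, by a test of the difference of differences in limma over the same 7178 genes, for 60 genes (0.836%), 30 of them among the genes named here. Values are log2 differences, 24 h minus 3 h, and the 2 times share neither sarin nor control arrays. Among genes of glycolysis and low oxygen the difference was -2.33 for PFKP (SE 0.25, adjusted p = 8.43e-05), -1.09 for GPI, -1.11 for ENO2, -0.97 for ALDOC and -1.14 for EGLN1. In lipid synthesis it was 1.91 for SCD, 1.60 for SQLE, 1.55 for MSMO1, 1.29 for ACAT2 and 1.13 for HMGCS1. PRSS12 stood at -2.14, the matrix inhibitor TFPI2 at -1.09, the transcription factor ETS2 at -1.46 and the adenylate kinase AK4 at -1.51. Mitochondrial genes went both ways, with MACROD1 at -1.60, ACADVL at -1.23 and the import chaperone TIMM8B at 0.80. On the cell surface CDH11 was at -1.51, NOTCH3 at -1.60, TNFRSF12A at -1.05, the adhesion gene FLRT3 at 1.3 and the amino acid carrier SLC6A15 at -1.83. Signalling genes were at -1.23 (TRAF5), -0.80 (RGS2), -1.20 (RAB31) and 2.05 (PIK3C2B). H2BC12 was at 2.11, SERPINH1 at 1.25, the exon junction gene RBM8A at 0.78 and CHGB at -0.73. Genes were named for their change at 24 h, so that a difference from 3 h is more likely among them than among all genes.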

How the results depend on the processing

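Against 622 changed genes (295 higher, 327 lower, 158 at least 2-fold), the counts were 309 with quantile normalization (147, 162 and 96), 1219 with median centring (1107, 112 and 243), 21 with spike-in scaling (14, 7 and 21), 2027 with array weights (871 and 1156), 1574 with the 24 h arrays alone (724 and 850) and 1004 without the 48 h sarin arrays (480 and 524). With the upper 40% of genes 91 changed at least 2-fold. Leaving out 1 array gave 194 to 408 genes, 94 to 201 higher, 99 to 215 lower and 86 to 169 at least 2-fold. Pseudocounts, no filter, the mean of probe sets, no trend, a robust trend and the untreated arrays of 3 h and 48 h kept the first count between 530 and 809. The mean log2 signal of the spike-in probe sets was 10.89 to 11.97 on the 24 h control arrays and 13.22 to 13.64 on the 48 h sarin arrays. Without the 48 h sarin arrays calls in lists moved as well. Solute carriers then had 3 higher and 15 lower, against 1 and 11 with all arrays, and G protein-coupled and peptide receptors 3 and 9, against 0 and 5. The cause of these moves was not tested. The replicate block gave 621 genes and dropped 3 calls of named genes. Arrays with the same number did not deviate together (r of 0.025, -0.031 and 0.019), so the numbers were not taken as pairs.

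Over named genes, 3304 alternative values kept direction and call, 1037 lost the call (185 of them with spike-in scaling) 4 gained one (all of PKM) and 18 changed sign. With the mean of probe sets these were ARID4B (-0.29), CLTA (-0.19), RAB7A (-0.10), GAPDH (-0.029) and MYT1 (0.38). With untreated arrays of other times they were CDCA8 (-0.38), TOLLIP (-0.026), TRAF5 (0.18), PNPLA6 (0.24), GAPDH (-0.10) and CHGB (0.62), and BCHE was at 0.19 with median centring and between -0.20 and 0.075 with single arrays left out (the latter without sarin replicate 1). GAPDH was at -0.0048 with quantile normalization and between -0.13 and 0.20 with single arrays left out. Of the list medians 277 of 1092 moved by more than the spread between arrays. Low signal limits ACHE and the genes near the level filter.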

Other observations

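The genes that changed at 24 h but had the opposite sign against the untreated arrays of 3 h and 48 h were, on the higher side, TRIB2, ZNF652, GOLM1, TOLLIP and CDCA8, and on the lower side CHGB, ARR3, DBT, GOLGA8N, SCD5, GOLGA8A, FER1L4, WSB1, TRAF5 and HIP1R. They were named after their values were seen. GOLGA8A and GOLGA8N are near-identical copies, which leaves the source of each signal uncertain. Apart from CHGB none was called in the opposite direction in limma at an adjusted p under 0.05.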
